A study of Mus musculus with 4 samples.

Results

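The cytochrome P450 genes are a superfamily of haem enzymes that insert an oxygen atom into steroids, fatty acids, vitamins and drugs. They were taken here as every gene named Cyp followed by a digit on the array, without Cyp51, and the brightest probe stood for each gene. The array held 97 such genes among 29924 gene names, and 39 of them could be tested among 18413 genes in all. RNA came from primary kidney tubular cells of 8 week old male mice on a B6.J background, grown in a renal growth medium, and each sample was hybridised to its own one-colour array. The 4 samples were 2 wild type and 2 SerpinB2-/- samples, and the numbers 1 and 2 below are those of the sample titles. All 4 cultures had received the phorbol ester PMA at 100 ng/ml, an activator of protein kinase C, so the groups differed by genotype alone as far as the labels go and the response to PMA was not measured. The labels do not say for how long PMA was given, whether the samples came from separate animals or cultures, or which part of Serpinb2 was deleted.

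Most P450 enzymes sit in the endoplasmic reticulum and draw electrons from the reductase encoded by Por, while a few lie in mitochondria and use ferredoxin. In the kidney the superfamily is known for the tubular enzyme that makes active vitamin D, for epoxygenases and hydroxylases that act on arachidonic acid, and for enzymes that clear retinoic acid. Many drug-oxidising members are best known from liver.

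Signals below are in normalised units, each array having been scaled so that its 75th percentile was the same, and a difference is SerpinB2-/- minus wild type on the log2 scale with its standard error (n = 2 per group). A gene was well above background on an array where more than 50% of its probe's spots carried that mark of the scanner software, and it was tested if this held on both arrays of at least 1 genotype. Calls are from limma with Benjamini-Hochberg adjustment over all 18413 genes at a threshold of 0.05. With 2 against 2 arrays an exact permutation test of a single gene cannot give a two-sided p below 0.333. The p-values measure the spread between these samples, which may be technical. Between 23409 and 24476 of 39429 probes were well above background per array. All 4 arrays lay on 1 slide, the wild type arrays at its first positions, so position and genotype cannot be told apart. The targeted gene Serpinb2 gave a signal of 3207 and 3276 in wild type samples 1 and 2 and of 5.47 and 7.39 in SerpinB2-/- samples 1 and 2, where it was not well above background. That is at least 140-fold lower (limma, adjusted p = 0.000688), and whether its probe lies in the deleted part is not known.

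The cultures carried markers of several cell types. Of 12 proximal tubule markers 10 were tested, among them Lrp2, Cubn, Aqp1 and Pax8, and Slc5a2 and Slc22a8 were not well above background. Of the 10, 1 was called higher in SerpinB2-/- and 2 lower, and the median log2 difference of the 10 was 0.0012. Their summed signal was 88532 to 103494 in wild type and 68714 to 72087 in SerpinB2-/-. Of 10 distal tubule and collecting duct markers 4 were tested, and Umod, Slc12a1, Slc12a3, Calb1, Avpr2 and Scnn1g were not well above background. Gata3, Hsd11b2 and Scnn1a, 3 of the 4, were called lower in SerpinB2-/-, with a summed signal of 1710 to 1796 against 928 to 1006. Urothelial and squamous markers were called lower in 2 of 6 cases, Ivl and Sfn, with a summed signal of 5903 to 6175 against 4283 to 4505. Endothelial markers were called lower in SerpinB2-/- cultures in 8 of 9 cases, with a summed signal of 14378 to 14946 in wild type and 8559 to 10755 in SerpinB2-/-. Leukocyte markers were called lower in 5 of 11 cases, with a summed signal of 22282 to 24234 against 19408 to 19922. Fibroblast and pericyte markers were called higher in 2 of 8 cases, with a summed signal of 279293 to 344646 against 361121 to 420246. Of all genes tested, 9.68% were called lower and 6.01% higher. A summed signal weighs the brightest markers of a list most. In bulk RNA, fewer cells of a type and less RNA per cell cannot be told apart, and the part of these markers in the P450 differences was not tested.

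P450 genes from 13 of 16 families were detected in the tubular cultures. Of the 97 genes 36 were well above background on all 4 arrays and 57 on none. Wild type samples 1 and 2 each showed 39 genes, SerpinB2-/- sample 1 showed 38 and SerpinB2-/- sample 2 showed 37. The 39 tested genes were 40.2% of the P450 genes, against 61.5% of all gene names. Family 2, the broadest drug and fatty acid group, had 17 of 46 genes tested, and family 4, the fatty acid hydroxylases, had 11 of 22. Within them, 4 of 6 Cyp2j genes, 4 of 13 Cyp2c genes, 4 of 10 Cyp2d genes, 4 of 8 Cyp4a genes and 5 of 10 Cyp4f genes were tested. None of the 5 Cyp2b or 3 Cyp2a genes was well above background on any array.

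**Figure D1:**
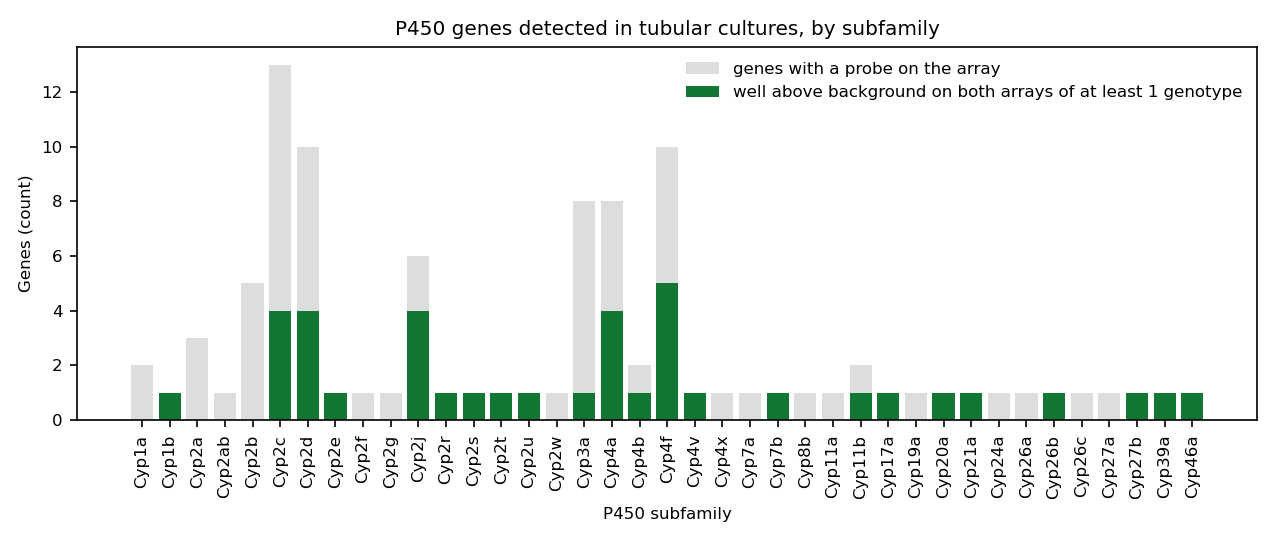
Number of P450 genes per subfamily (vertical axis, counts), with grey bars for genes that have a probe on the array and green bars for those well above background on both arrays of at least 1 genotype. Cyp4f had 5 detected genes of 10, Cyp2c 4 of 13 and Cyp3a 1 of 8.

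Several genes with well known roles were not well above background on any array. Cyp1a1, the classical target of the aryl hydrocarbon receptor, gave signals of 5.58 and 6.57 in wild type samples 1 and 2 and of 5.24 and 6.36 in SerpinB2-/- samples 1 and 2. Cyp24a1, which inactivates vitamin D and is a target of its receptor, gave 10.98 and 7.81 in wild type and 6.56 and 7.98 in SerpinB2-/-. Cyp26a1, a retinoic acid hydroxylase, gave 25.0 and 20.1 in wild type and 13.8 and 19.8 in SerpinB2-/-. None of these 3 probes was well above background on any array, so no difference is given for them. Cyp27a1, a mitochondrial sterol hydroxylase, lay between 5.88 and 9.10 over the 4 arrays, and Cyp11a1, which starts steroid synthesis, between 5.12 and 6.36. Families 8, 19 and 24, with Cyp8b1, Cyp19a1 and Cyp24a1 as their single genes here, had no tested gene. In family 3 the tested gene was Cyp3a13, and the other 7 Cyp3a genes were left out by the filter. Signals of the 58 genes that were not tested ran from 4.87 to 29.2. The genes nearest to the filter on its passing side were Cyp2d22, well above background on both wild type arrays alone, and Cyp11b1 and Cyp2c67, each on 3 arrays. Cyp3a11 lay just outside it, well above background on 1 array.

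Probe sequences are shown for 2 cases in which they bear on what a probe can tell. The brightest probe named Cyp2u1, a fatty acid hydroxylase, lies at chr3:130996343-130996402 on the minus strand (mm9) and holds an unbroken run of 32 alternating G and T bases from base 13 of its 60 bases. Its stretch from base 13 to base 42, all of it repeat, reads as follows.
Cyp2u1 probe: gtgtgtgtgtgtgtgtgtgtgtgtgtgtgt
The array held 15 probes with a run at least that long, and all 15 were well above background on all 4 arrays, against 58.7% of all probes. The dimmest of them gave a signal of 33046 in wild type sample 1. The Cyp2u1 probe gave 80516 and 78386 in wild type and 80745 and 82897 in SerpinB2-/-. Of the 2 other Cyp2u1 probes, one gave 115 and 99.1 in wild type and 88.5 and 111 in SerpinB2-/-, and the one placed on the RefSeq transcript gave 23.4 and 22.9 against 15.3 and 25.0 and was not well above background on any array. The 3 probes of the gene thus disagree on whether Cyp2u1 was detected, and its level is uncertain.

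The second case is a pair of fatty acid hydroxylases on chromosome 4, Cyp4a10 and Cyp4a31, which are close copies. Each has 3 probes. The pair printed here, 1 probe of each gene, is nearly identical, and it is not the pair of brightest probes that stands for the genes below. These lie on the plus strand at chr4:115198463-115198522 and chr4:115243923-115243982 (mm9), and capitals mark the 6 bases of 60 at which they differ.
Cyp4a10: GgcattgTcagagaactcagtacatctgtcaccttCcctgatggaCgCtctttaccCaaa
Cyp4a31: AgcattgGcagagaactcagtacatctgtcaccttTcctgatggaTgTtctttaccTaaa
The printed Cyp4a10 probe gave 84.7 and 82.1 in wild type and 81.7 and 84.4 in SerpinB2-/-, a difference of -0.0053. The printed Cyp4a31 probe gave 56.8 and 47.3 in wild type and 36.7 and 54.2 in SerpinB2-/-, a difference of -0.22. Whether transcripts of one gene bind the probe of the other was not tested. Probes of Cyp2c67 and Cyp2c68 differ at 4 of 59 aligned bases, and the first was well above background on 3 arrays and the second on none.

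None of the 4 tested Cyp4a genes was called, and their differences ran from -0.16 to -0.03. The brightest Cyp4a10 probe gave 82.1 and 87.3 in wild type and 81.8 and 84.2 in SerpinB2-/-, a difference of -0.03 ± 0.06 and a 95% interval from -0.19 to 0.14. The lowest difference of these genes was that of Cyp4a12a at -0.16 ± 0.17, with a 95% interval from -0.61 to 0.29. Its signal was 74.0 and 62.6 in wild type and 52.1 and 71.3 in SerpinB2-/-. Cyp4a12b, at 130 and 123 in wild type against 98.1 and 135, differed by -0.14 ± 0.16, with a 95% interval from -0.55 to 0.28. Cyp4a31 gave 80.8 and 83.3 against 81.7 and 78.2, a difference of -0.04 ± 0.06. The groups overlapped for all 4 genes, and the differences of Cyp4a10 and Cyp4a31 were above 0 with median scaling and with quantile normalisation.

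Across the 39 tested genes, 7 fell in SerpinB2-/- cultures and none rose. The 7 were Cyp4f13, Cyp4f17, Cyp4f18, Cyp2j8, Cyp2c38, Cyp2d22 and Cyp21a1. Cyp2d22 passed the filter through its wild type arrays alone, the group in which it was higher. The 7 were 17.9% of the tested P450 genes, while 9.68% of all genes tested were called lower, 6.01% higher and 15.7% in either direction. Differences lay below 0 for 30 of the 39 genes, with a median of -0.16 against 0.01 for all genes tested. The groups did not overlap for 23 of the 39 genes, or 59.0%, where the share of all genes was 64.3%. Of the 23, 19 were lower in SerpinB2-/- (48.7% of the 39, against 31.9% of all genes) and 4 were higher (10.3%, against 32.4%). Between the 2 arrays of a genotype, the median absolute log2 difference of the tested P450 genes was 0.12 in wild type and 0.10 in SerpinB2-/-.

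**Figure D2:**
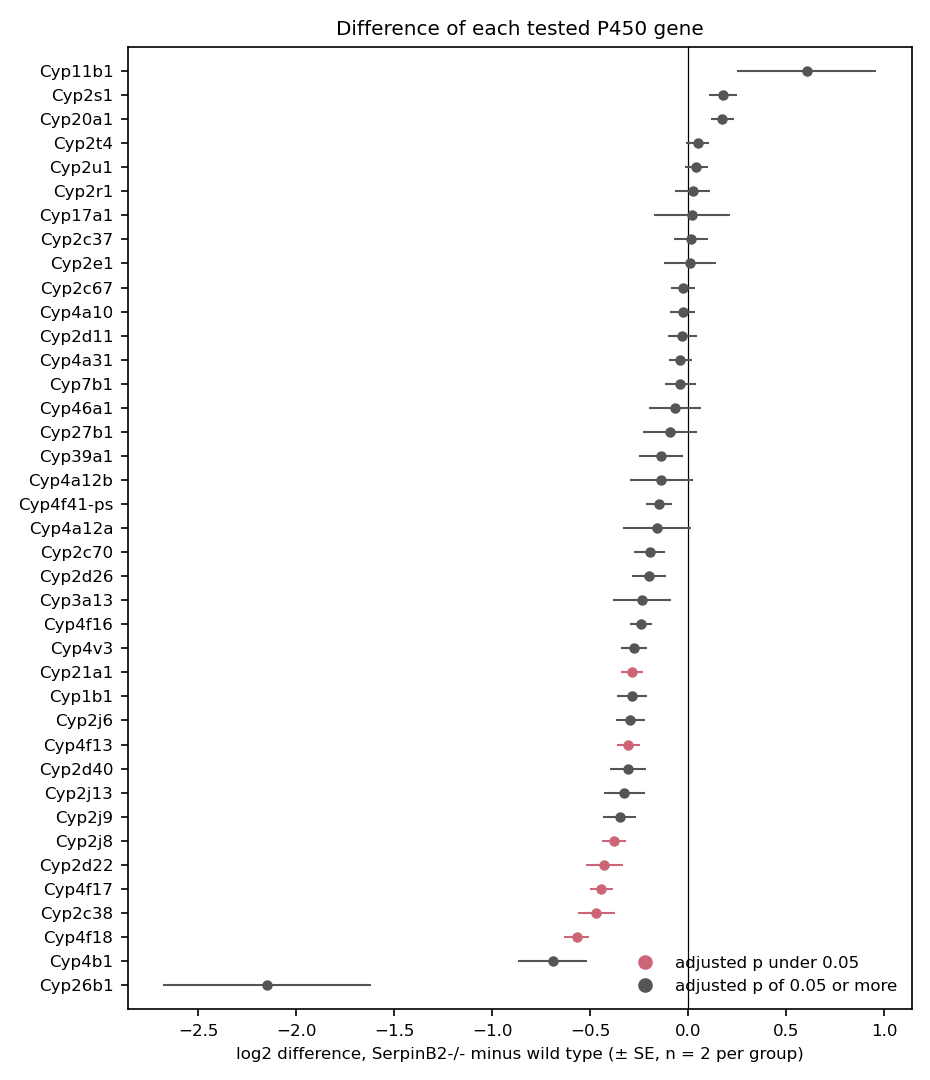
Difference of each of the 39 tested P450 genes (horizontal axis, log2 SerpinB2-/- minus wild type, bars show the standard error, n = 2 per group), ordered by size, with the 7 genes under an adjusted p of 0.05 in red. Of the 39 points 30 lie below 0, and Cyp26b1 at -2.15 has the widest bar.

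The count of 7 rested on all 4 arrays. It was lower with any 1 array left out, and so was the count of calls over all genes. Scaling by the median of all probes, which moved the median difference of all genes to 0.14, gave 5 lower and 2 higher P450 genes. The higher ones were Cyp20a1 and Cyp2s1. Over all 18413 genes that scaling called 1246 lower and 4333 higher. Quantile normalisation gave 4 lower and 1 higher P450 gene, against 1261 lower and 1118 higher over all genes. Relative to the median of all genes the P450 median was -0.17 under both the 75th percentile and the median scaling, and -0.07 after quantile normalisation. Differences below 0 numbered 23 of 39 with median scaling and 25 with quantile normalisation. Below the median of all genes lay 30 genes under both the 75th percentile and the median scaling, and 25 with quantile normalisation. Median scaling shifts all differences by a constant, so its values relative to the median of all genes are the same by construction. No P450 gene was called when dim probes were kept or when an unmoderated test was used. Over all genes these settings gave 3 and 0 calls. In the unmoderated test 8 P450 genes had an unadjusted p under 0.05, as did 17 in the moderated one. Over all 18413 genes these numbers were 4447 and 6297.

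The Cyp4f genes, which hydroxylate leukotriene B4 and other fatty acids, held 3 of the 7 calls. Cyp4f18, whose product acts on leukotriene B4 in mouse leukocytes, is covered by a probe at chr8:74512381-74512440 on the minus strand (mm9). Its signal was 677 and 631 in wild type and 441 and 441 in SerpinB2-/-. The groups did not overlap, and the difference was -0.57 ± 0.06 (limma, adjusted p = 0.0114). A second Cyp4f18 probe that differs from the first at 3 of 59 aligned bases gave -0.58. Of the 16 alternative settings Cyp4f18 kept its call in 13.

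Cyp4f17 (probe at chr17:32665243-32665302, plus strand, mm9) gave 535 and 556 in wild type and 396 and 406 in SerpinB2-/-. Both SerpinB2-/- arrays were below both wild type arrays, with a difference of -0.44 ± 0.06 (limma, adjusted p = 0.0155), and the call held in 11 of 16 alternatives. Cyp4f13 (probe spanning chr17:33062503-33062650, minus strand, mm9) gave 756 and 792 in wild type and 616 and 637 in SerpinB2-/-. It was lower on both arrays by a smaller amount, -0.30 ± 0.06 (limma, adjusted p = 0.0370), and the call held in 8 of 16 alternatives. Cyp4f16 missed the threshold, with 1089 and 1072 in wild type against 923 and 906, a difference of -0.24 ± 0.06 and an adjusted p of 0.0511 in limma. The pseudogene Cyp4f41-ps differed by -0.15 ± 0.07. Differences of all 5 tested Cyp4f genes were thus below 0, from -0.57 to -0.15. So were those of all tested Cyp4a, Cyp2d and Cyp2j genes, and of 30 of the 39 genes in all. The other 5, Cyp4f14, Cyp4f15, Cyp4f37, Cyp4f39 and Cyp4f40, were not tested.

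**Figure D3:**
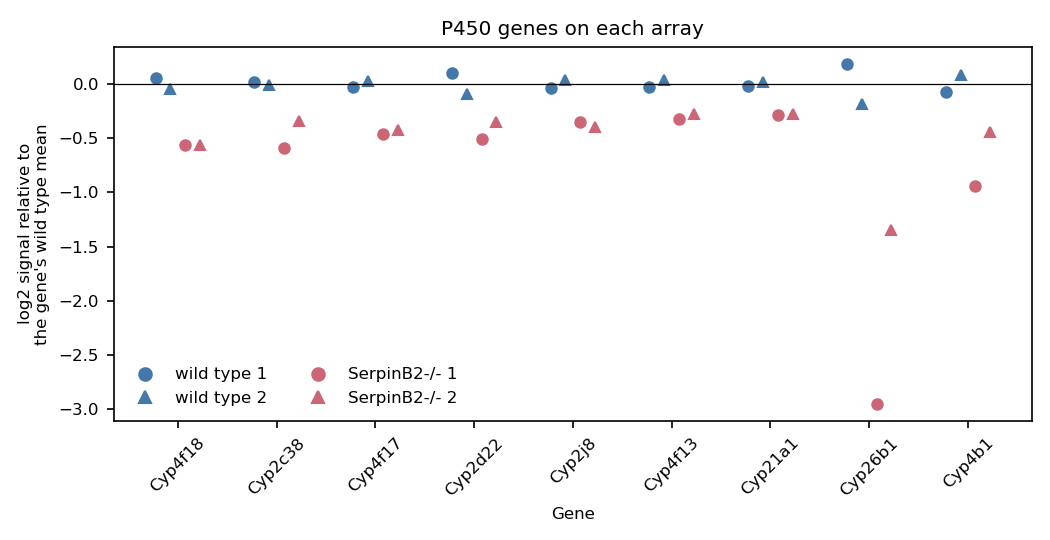
Signal of each array (vertical axis, log2 relative to the gene's wild type mean) for the 7 called P450 genes and for Cyp26b1 and Cyp4b1, with wild type in blue, SerpinB2-/- in red, circles for sample 1 and triangles for sample 2. The 2 genotypes do not overlap for any of the 9 genes, which were chosen for their calls or low differences. Over all genes tested, 64.3% did not overlap. The SerpinB2-/- arrays of Cyp26b1 lie farthest from each other.

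The sequence before the start is shown for Cyp4f13 and Cyp4f18, which were called lower, and for Cyp4f16, which was not called. RefSeq promoter windows (250 bases before to 50 after the start, GRCm38.p6) were at hand for Cyp4f13, Cyp4f16 and Cyp4f18 among the tested Cyp4f genes. Stretches of 80 bases from each are printed 5′ to 3′ on the gene's strand, with GATTGG in capitals, which holds ATTGG, the reverse complement of the CCAAT box. They come from chr17:32947409-32947488 (minus strand), chr17:32536483-32536562 (plus strand) and chr8:72009646-72009725 (minus strand).
Cyp4f13: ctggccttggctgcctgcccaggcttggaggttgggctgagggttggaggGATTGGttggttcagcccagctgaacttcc
Cyp4f16: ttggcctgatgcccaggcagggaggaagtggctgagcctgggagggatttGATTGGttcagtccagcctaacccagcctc
Cyp4f18: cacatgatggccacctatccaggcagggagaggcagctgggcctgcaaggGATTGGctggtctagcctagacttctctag
The motif begins 77, 24 and 49 bases before the RefSeq start of Cyp4f13, Cyp4f16 and Cyp4f18, respectively. Local alignments of the windows that span the motif were 70.7% identical over 140 columns for Cyp4f13 and Cyp4f16, 61.8% over 207 for Cyp4f13 and Cyp4f18, and 67.6% over 102 for Cyp4f16 and Cyp4f18. GATTGG or its complement CCAATC, searched on both strands, was in 18.2% of the windows of 27025 genes, in 21 of 71 P450 genes with a window and in 12 of the 26 tested ones. The shorter ATTGG or CCAAT, which every GATTGG match holds, was in 41.1%, in 34 of 71 and in 15 of 26. Among the called genes with a window, Cyp4f13, Cyp4f18 and Cyp2j8 held GATTGG and Cyp2c38 did not. The tested genes that held it without being called were Cyp27b1, Cyp2c37, Cyp2d11, Cyp2d40, Cyp2e1, Cyp2j6, Cyp2j9, Cyp46a1 and Cyp4f16. Their differences ran from -0.35 for Cyp2j9 to 0.02 for Cyp2c37. Among tested genes whose windows lacked it, differences ran from -2.15 for Cyp26b1 to 0.18 for Cyp2s1, with Cyp4b1 at -0.69. The motif was chosen after these windows were seen, and a match describes letters in a window. The part of the motif in any difference was not tested.

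Several but not all enzymes of leukotriene and thromboxane synthesis were called lower in the same cultures. Of 14 tested genes of arachidonic acid handling 3 were called lower and none higher, with a list median of 0.01. Over all genes tested the shares were 9.68% lower and 6.01% higher. The list's largest difference above 0 was that of Ptgds, at 0.60 ± 0.15, which was not called (limma, adjusted p = 0.0611). Alox5, the lipoxygenase that starts leukotriene synthesis, gave 1279 and 1214 in wild type and 755 and 822 in SerpinB2-/-, a difference of -0.66 ± 0.07 (limma, adjusted p = 0.0108). Its partner Alox5ap differed by -0.44 ± 0.06 and Ltc4s, which conjugates leukotriene A4 to glutathione, by -0.60 ± 0.09 (limma, adjusted p = 0.0189 and 0.0206). Lta4h, which makes leukotriene B4, was higher without being called, at 9929 and 9568 in wild type and 10907 and 11532 in SerpinB2-/-, 0.20 ± 0.06 (limma, adjusted p = 0.0955). Tbxas1, the thromboxane synthase and itself a P450 enzyme under another name, gave 583 and 532 in wild type and 422 and 390 in SerpinB2-/-, a difference of -0.46 ± 0.08 (limma, adjusted p = 0.0266). Ptgis, the prostacyclin synthase, differed by -0.21 ± 0.07 and was not called. The cyclooxygenase genes Ptgs1 at 0.02 ± 0.07 and Ptgs2 at -0.0043 ± 0.15 had groups that overlapped. Of 11 tested leukocyte markers 5 were called lower. Among them were Coro1a at -1.02 ± 0.10, Laptm5 at -0.88 ± 0.19 and Adgre1 at -0.71 ± 0.12. Csf1r at -0.56 ± 0.08 and Ptprc at -0.51 ± 0.08 were the others. Leukocyte markers that were not called ran from -0.33 for Cd68 to -0.03 for Cd14. The part of leukocyte markers in the Cyp4f18, Alox5 and Tbxas1 differences was not tested.

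The Cyp2j genes, arachidonic acid epoxygenases, had all 4 tested members below 0, between -0.38 and -0.29, and 1 of them was called. Cyp2j8 (probe at chr4:96111331-96111390, minus strand, mm9) gave 820 and 862 in wild type and 657 and 638 in SerpinB2-/-. The groups did not overlap, and the difference was -0.38 ± 0.06 (limma, adjusted p = 0.0234), a call that held in 9 of 16 alternatives. A second Cyp2j8 probe lay between 5.25 and 6.47 and was well above background on no array, so the call rests on the brighter probe. Cyp2j6 gave 644 and 715 in wild type and 565 and 542 in SerpinB2-/-, -0.29 ± 0.08, and its second probe gave -0.31. Cyp2j9 gave 71.1 and 66.6 against 50.8 and 57.5, -0.35 ± 0.08. Cyp2j13 gave 161 and 186 against 147 and 129, -0.33 ± 0.11, and its other probes, at 5.60 to 13.6, were well above background on no array. Groups did not overlap for these 3 genes either, as for 64.3% of all genes tested. Their adjusted p values of 0.0634, 0.0573 and 0.104 in limma missed the threshold. Cyp2j5 and Cyp2j11 were not tested.
The epoxide hydrolases that act on the products were not called, Ephx1 at -0.26 ± 0.12 and Ephx2 at 0.16 ± 0.10.

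In the Cyp2c subfamily, which holds further arachidonic acid and drug oxidases, Cyp2c38 fell and 3 other tested genes were not called. Cyp2c38 (probe at chr19:39465415-39465474, minus strand, mm9) gave 230 and 225 in wild type and 152 and 179 in SerpinB2-/-. Both SerpinB2-/- arrays were lower but apart from each other, and the difference was -0.47 ± 0.09 (limma, adjusted p = 0.0387), with the call kept in 9 of 16 alternatives. A second Cyp2c38 probe lay between 5.26 and 6.47 and was well above background on no array, so the call rests on the brighter probe. Cyp2c37 differed by 0.02 ± 0.09, Cyp2c67 by -0.03 ± 0.06 and Cyp2c70 by -0.20 ± 0.08. In the Cyp2d subfamily of drug oxidases, Cyp2d22 (chr15:82204377-82204436, minus strand, mm9) was well above background on both wild type arrays, at 36.7 and 32.2, and on neither SerpinB2-/- array, at 24.2 and 27.0. Its SerpinB2-/- signals lay above the lowest signal well above background of those arrays, so the bound, at least 1.34-fold lower, equals the measured ratio (limma, adjusted p = 0.0474). With normexp background correction its adjusted p was 0.597, and it kept its call in 4 of 15 alternatives. Cyp2d40, Cyp2d26 and Cyp2d11 differed by -0.31 ± 0.09, -0.20 ± 0.09 and -0.03 ± 0.07 and were not called.

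Steroid-forming P450 genes did not move as a group. Cyp21a1, the steroid hydroxylase needed for glucocorticoids and mineralocorticoids, gave 304 and 311 in wild type and 252 and 253 in SerpinB2-/-. The groups did not overlap, and the difference was -0.29 ± 0.06 (limma, adjusted p = 0.0350), a call that held in 5 of 16 alternatives. Its probe lies at chr17:34938298-34938357 on the minus strand (mm9), and the mouse genome holds a closely related pseudogene copy whose transcripts it may not separate. A second Cyp21a1 probe lay between 5.53 and 6.61 and was well above background on no array, so the call rests on the brighter probe. Cyp17a1, a steroid hydroxylase and lyase, gave 9980 and 6871 in wild type and 7843 and 8988 in SerpinB2-/-. Its groups overlapped, with a difference of 0.02 ± 0.19 and a 95% interval from -0.48 to 0.52. Cyp11b1, a last step of glucocorticoid synthesis, was well above background on 1 wild type array and gave 44.3 and 23.1 in wild type and 40.0 and 59.1 in SerpinB2-/-, a difference of 0.61 ± 0.36 (limma, adjusted p = 0.296). Of 11 adrenal cortex markers 5 were tested, with a median difference of -0.11. Their summed signal was 5090 to 5129 in wild type and 5293 to 5457 in SerpinB2-/-. Most of that sum was Scarb1, at 4549 and 4505 in wild type and 4962 and 4766 in SerpinB2-/-. Of the 5, Scarb1 and Cyp11b1 had differences above 0, and Cyp21a1, Nr5a1 and Star below 0. Cyp11a1, Cyp11b2, Hsd3b1, Hsd3b6, Mc2r and Akr1b7 were not well above background.

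Cyp26b1, which hydroxylates and so clears retinoic acid, had the lowest difference of the 39 genes and missed the threshold. Its probe lies at chr6:84521952-84522011 on the minus strand (mm9). The signal was 2033 and 1580 in wild type and 232 and 705 in SerpinB2-/-, so the groups did not overlap but the SerpinB2-/- arrays lay far apart. The difference was -2.15 ± 0.53, with a 95% interval from -3.52 to -0.77 (limma, adjusted p = 0.0591). Without SerpinB2-/- sample 1 the difference was -1.35, and without SerpinB2-/- sample 2 it was -2.95. It passed the threshold in 7 of 16 alternatives, these 2 included, in which the spread between the SerpinB2-/- arrays was absent by construction. Around it, 3 of 10 tested genes of retinoid handling fell and 2 rose, with a list median of -0.18. Among all genes tested, 9.68% were called lower and 6.01% higher.

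Aldh1a1, which oxidises retinaldehyde to retinoic acid, gave 665 and 673 in wild type and 176 and 230 in SerpinB2-/-, a difference of -1.73 ± 0.14 (limma, adjusted p = 0.00741). Its close relative Aldh1a7 differed by -1.71 ± 0.21 and Stra6, a receptor that takes up retinol, by -1.12 ± 0.08, both called. Aldh1a3, another retinaldehyde oxidase, rose from 1084 and 1368 to 1853 and 1913, by 0.63 ± 0.12, and Aldh1a2, of the same role, differed by -0.25 ± 0.07 and was not called. Dhrs3, which reduces retinaldehyde, gave 6873 and 4916 in wild type and 3308 and 6847 in SerpinB2-/-, and its groups overlapped. Crabp2, a retinoic acid carrier, differed by -0.12 ± 0.14. Endothelial markers, summed at 14378 to 14946 in wild type, were at 8559 in SerpinB2-/- sample 1 and 10755 in SerpinB2-/- sample 2. The distal tubule and collecting duct, urothelial and squamous, and fibroblast and pericyte sums were also lower in SerpinB2-/- sample 1 than in sample 2. The proximal tubule, leukocyte and adrenal cortex sums had the reverse order. The part of any of these markers in the Cyp26b1 difference was not tested.

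**Figure D4:**
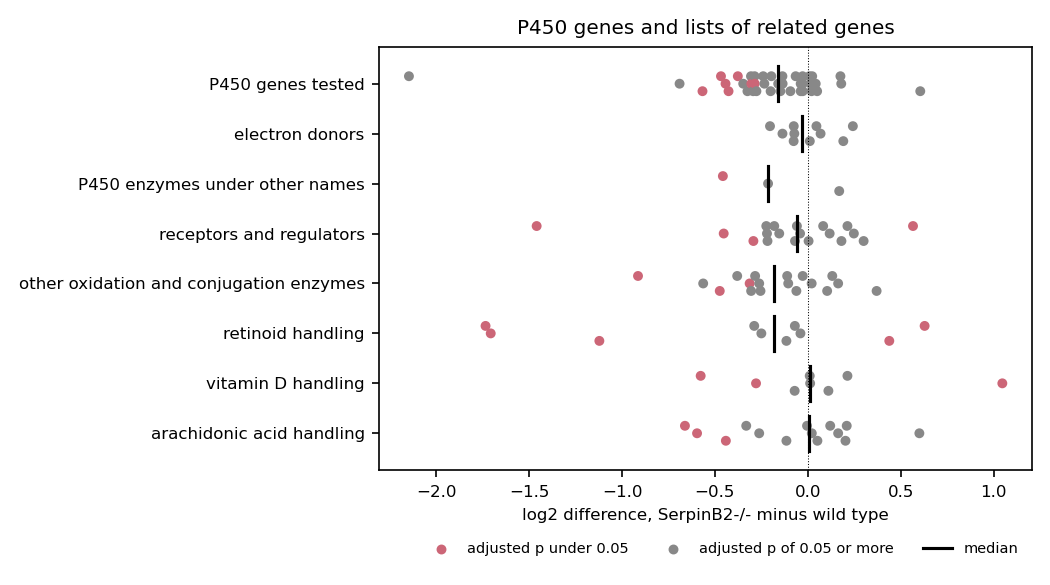
Difference of each tested gene (horizontal axis, log2 SerpinB2-/- minus wild type) for the P450 genes and 7 lists of related genes, with red points for an adjusted p under 0.05, grey points for the others and a black bar for each median. The retinoid list spans -1.73 to 0.63, and the electron donors lie between -0.20 and 0.24 with no call.

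The vitamin D enzymes were not called. Cyp27b1, which makes active vitamin D in the proximal tubule, gave 62.2 and 79.6 in wild type and 69.8 and 62.3 in SerpinB2-/-. The groups overlapped, with a difference of -0.09 ± 0.14 and a 95% interval from -0.45 to 0.26. Cyp2r1, a vitamin D hydroxylase best known from liver, gave 962 and 854 in wild type and 877 and 967 in SerpinB2-/-, 0.02 ± 0.09, and its second probe gave 0.14. Of 8 tested genes of vitamin D handling 1 rose and 2 fell, with a list median of 0.01. The shares over all genes tested were 6.01% higher and 9.68% lower. S100g, a calcium-binding protein, rose from 651 and 535 to 1420 and 1046, by 1.05 ± 0.18, while the calcium channel gene Trpv6 fell by 0.58 and the vitamin D carrier Gc by 0.28 on the log2 scale. The receptor gene Vdr differed by 0.21 ± 0.06 and was not called (limma, adjusted p = 0.0915).

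The remaining xenobiotic and fatty acid oxidases were not called. Cyp4b1 (chr4:115297406-115297465, minus strand, mm9), which oxidises fatty acids and several protoxins, had the second lowest difference, with 156 and 173 in wild type and 85.6 and 121 in SerpinB2-/-. Its groups did not overlap, but its difference of -0.69 ± 0.18 missed the threshold (limma, adjusted p = 0.0632). It passed in 4 of 16 alternatives. Cyp1b1, an oxidase of oestrogens and polycyclic hydrocarbons outside the liver, gave 13074 and 14569 in wild type and 11177 and 11455 in SerpinB2-/-, -0.29 ± 0.07 (limma, adjusted p = 0.0671). Cyp4v3, a fatty acid hydroxylase, differed by -0.28 ± 0.07 (limma, adjusted p = 0.0563). Like Cyp4f16, Cyp2j6, Cyp2j9 and Cyp26b1, these genes had an adjusted p between 0.05 and 0.07 and were not called. Cyp2e1, the ethanol-oxidising enzyme, gave 37.4 and 48.5 in wild type and 43.4 and 42.3 in SerpinB2-/-, with overlapping groups and a difference of 0.01 ± 0.13. Cyp3a13 differed by -0.23 ± 0.15.

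Cyp2s1 and Cyp20a1 were higher in SerpinB2-/- without reaching the threshold. Cyp2s1, an extrahepatic enzyme, gave 100.0 and 107.2 in wild type and 113 and 121 in SerpinB2-/-, a difference of 0.18 ± 0.07 (limma, adjusted p = 0.151). Cyp20a1, which has no settled substrate, gave 1702 and 1734 against 1911 and 1970, 0.18 ± 0.06 (limma, adjusted p = 0.105). Groups did not overlap for either gene, as for 64.3% of all genes tested. The second Cyp20a1 probe, at 98.2 and 81.5 in wild type and 72.4 and 70.1 in SerpinB2-/-, gave a difference of -0.33. The direction of Cyp20a1 thus depends on the probe. Among the sterol hydroxylases, Cyp39a1 gave 2483 and 2034 in wild type and 1976 and 2118 in SerpinB2-/-, -0.14 ± 0.11. Cyp7b1, which hydroxylates oxysterols, gave 113 and 106 against 101 and 112, -0.04 ± 0.08. Cyp46a1, the cholesterol hydroxylase of neurons, differed by -0.07 ± 0.13, and groups overlapped for all 3 genes.

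None of the 10 genes that supply electrons to P450 enzymes was called. Por, the reductase of the endoplasmic reticulum, gave 12992 and 15292 in wild type and 14157 and 11614 in SerpinB2-/-, a difference of -0.14 ± 0.13 with overlapping groups. Of 19 tested receptors and regulators of P450 genes 1 rose and 3 fell, with a list median of -0.06. For this list and the others here, the shares over all genes tested were 6.01% higher and 9.68% lower. Hnf4a, a factor of liver and proximal tubule, rose from 456 and 411 to 613 and 669, by 0.57 ± 0.08 (limma, adjusted p = 0.0194). Ahrr, which represses the aryl hydrocarbon receptor and is its target, gave 63.7 and 89.3 in wild type and 31.1 and 24.2 in SerpinB2-/-, where 1 of 2 arrays was well above background, and was called lower (limma, adjusted p = 0.0177). The retinoid receptor genes Rarg and Rxra fell by 0.45 and 0.29 on the log2 scale. Ahr at -0.18 ± 0.09 and its target Tiparp at -0.22 ± 0.11 were not called. Of 18 tested enzymes of other oxidation and conjugation steps 3 fell and none rose, with a list median of -0.18. They were Nqo1, a quinone reductase, at -0.91 ± 0.16, Aox1, an aldehyde oxidase, at -0.47 ± 0.07, and Aldh3b1, an aldehyde dehydrogenase, at -0.31 ± 0.06.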

How the data were processed

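Total RNA of 2 wild type and 2 SerpinB2-/- samples (150 ng each, Cy3, per the labels) was measured on one-colour arrays. The deposited intensity values had a background subtracted by Agilent Feature Extraction 10.7.3.1, per the file headers, which place the probes on mm9. The authors' deposited table also held intensity values, with column medians of 76 and 77 (wild type samples 1 and 2) and 68 and 71 (SerpinB2-/- samples 1 and 2). In each column the 75th percentile was 1500 and the lowest value 4, and values followed the scanner's by 1 factor per array, 0.698 to 0.787 (97.2% to 98.3% of probes within 5%). Its centring is not stated.

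Control spots and outlier spots were left out, the log2 values of the 4 spots per probe were averaged and each array's 75th percentile was subtracted. Surrogate values that the software gives dim spots were kept. The 97 genes had 122 probes (77 genes had 1). The comparison used limma (version 3.58.1, R 4.3.3) with Benjamini-Hochberg adjustment, and the procedure was checked on simulated data. No sample column was left unmapped. A bound is given where both arrays of a genotype were below the background limit. It sets the bright group's mean against the dim group's, each dim array entering at its own value or at its lowest signal well above background, whichever was larger. Every tested P450 gene could be named, with array values for called genes and a set of others listed by role, and up to 4 called genes of each related list. One called gene of the retinoid list is not reported here. The members, the lists and this rule were chosen with earlier results of these data known. Promoter windows are RefSeq sequences of GRCm38.p6 and were matched by symbol. Positions of that build and of mm9 were not mixed, and exon or UTR positions of probes were not used here. Alternatives covered background correction, scaling, the authors' table, the filter on dim probes, the probes of a gene, the model, the replicate block and each array left out.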

Additional observations from a re-analysis of the deposited data

Results flagged for a closer look

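Cyp3a11, a drug oxidase best known from liver, stood out as a signal in data that the comparison did not use. Its probe was well above background in wild type sample 2 alone, at a signal of 29.2. The other arrays gave 26.3 in wild type sample 1 and 25.1 and 25.7 in SerpinB2-/- samples 1 and 2, so the array that carried the mark was close to those that did not.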

How the results depend on the processing

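Cyp4f13, Cyp4f17, Cyp4f18, Cyp2j8, Cyp2c38, Cyp2d22 and Cyp21a1 stayed below 0 in every alternative that gave them a value (16 each, 15 for Cyp2d22). The count of lower P450 genes was 4 with quantile normalisation, 12 with the 75th percentile of probes detected on all 4 arrays, 12 with a trended fit, 0 with dim probes kept (97 P450 genes tested), 0 in the unmoderated test, and 0 to 5 with each array left out. Higher P450 genes numbered 1 with quantile normalisation (Cyp2s1) and 2 with median scaling. Lower calls over all genes numbered 1261 with quantile normalisation, 2167 with the detected-probe percentile and 1980 with a trended fit. Over all genes, 2889 calls became 5579 with median scaling (4333 higher and 1246 lower, against 1107 and 1782), 3 with dim probes kept, 0 in the unmoderated test (4447 at an unadjusted p under 0.05) and 751 to 1582 with each array left out. The median P450 difference was -0.061 with normexp, -0.054 with quantile normalisation, -0.025 with median scaling, -0.20 with the detected-probe percentile, -0.20 in the authors' table, -0.094 with dim probes kept, -0.18 over probes well above background on all 4 arrays, and -0.23 to -0.14 with each array left out. A shift of all differences by a constant is built into the scaling alternatives. For the others the cause was not tested.

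With the replicate number as a block, 6 P450 genes and 2147 genes in all were called, and no P450 gene was called higher. Cyp4f13, Cyp21a1 and Cyp2d22 lost their calls there, and Cyp26b1 and Cyp4b1 gained one. The labels do not say that a number marks a shared animal or day, and the deviations of same-numbered samples correlated at 0.26 over 18413 genes, and no pairing was taken from the numbers.

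The differences that changed sign belonged to genes that were not called. With quantile normalisation they were Cyp17a1 at -0.019, Cyp27b1 at 0.046, Cyp2c67 at 0.11, Cyp2d11 at 0.038, Cyp2u1 at -0.034, Cyp46a1 at 0.071, Cyp4a10 at 0.092, Cyp4a31 at 0.084, Cyp7b1 at 0.096 and Ptgs1 at -0.018. With median scaling they were Cyp27b1 at 0.041, Cyp2c67 at 0.11, Cyp2d11 at 0.11, Cyp46a1 at 0.069, Cyp4a10 at 0.11, Cyp4a31 at 0.096, Cyp7b1 at 0.096, Ptgs2 at 0.13 and Crabp2 at 0.019. With the detected-probe percentile they were Cyp17a1 at -0.018, Cyp2c37 at -0.023, Cyp2e1 at -0.030, Cyp2r1 at -0.015 and Ptgs1 at -0.017. With normexp there was Cyp2c67 at 0.029, in the authors' table Cyp4a10 at 0.011 and Cyp4a31 at 0.050, and with a gene's probes averaged Cyp20a1 at -0.077 and Cyp2u1 at -0.033. With each array left out, the range was -0.25 to 0.29 for Cyp17a1, -0.27 to 0.085 for Cyp27b1, -0.067 to 0.098 for Cyp2c37, -0.070 to 0.015 for Cyp2c67, -0.086 to 0.029 for Cyp2d11, -0.18 to 0.20 for Cyp2e1, -0.063 to 0.11 for Cyp2r1, -0.28 to 0.0083 for Cyp39a1, -0.24 to 0.11 for Cyp46a1, -0.072 to 0.017 for Cyp4a10, -0.39 to 0.067 for Cyp4a12a, -0.37 to 0.093 for Cyp4a12b, -0.12 to 0.039 for Cyp7b1, -0.28 to 0.0063 for Por, -0.024 to 0.066 for Ptgs1, -0.20 to 0.19 for Ptgs2, -0.81 to 0.24 for Dhrs3 and -0.32 to 0.088 for Crabp2. Leaving out an array leaves a lone sample that is assumed to vary like the other group. Precision was limited by the number of arrays and, for probes near background such as Cyp2d22, by their signal.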
